A study of Mus musculus with 20 samples.

Results

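Ubiquitin-specific proteases (USPs) make up the largest family of deubiquitinating enzymes. Their transcripts were described here in mouse spermatocytes at 3 stages of meiosis, in wild-type (WT) and Cxxc1-null animals. The members are all rows of the expression table whose symbol begins with Usp followed by a digit, which gave 52 of 23235 genes. Of these, 45 reached 1 FPKM (fragments scaled by transcript length and library size) in at least 2 libraries and were tested. The symbol rule also took Usp6nl, whose product is a GTPase-activating protein for Rab5 and not a protease.

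The study has 12 RNA libraries in 6 groups of 2: pachytene, diplotene and meiosis II spermatocytes, each WT or Cxxc1-null. All animals were adult males on a C57BL/6 background, and every library was made by Smart-seq2 with oligo-dT priming from 500 cells isolated by fluorescence-activated sorting. The sources used here do not give the allele of Cxxc1 or the cells in which it was deleted. Whether the 2 libraries of a group came from different animals is not stated in the labels. Each p-value therefore reflects library-to-library spread, and this may be technical.

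A USP removes ubiquitin from a protein, or trims a ubiquitin chain, with a catalytic cysteine. It thereby opposes ubiquitin ligases, and the targets include histones, DNA repair factors, receptors on endosomes and proteins on their way to the proteasome. In male meiosis ubiquitin marks chromosome axes and the sex body, the compartment in which the X and Y chromosomes are silenced during pachytene. Several USP genes are known for high expression in testis, among them Usp2, Usp26 and Usp44. Cxxc1 encodes the CpG-binding subunit of the SETD1 complexes, which deposit H3K4me3 at promoters rich in unmethylated CG.

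Because CXXC1 binds unmethylated CG, the promoters of 5 members are shown. Usp46, Usp48 and Usp32 are the 3 members called lower in Cxxc1-null cells (Usp32 in meiosis II alone). Usp26, which was called higher, and Usp50, which was not called, have few CG. The 5 were picked by their calls and CG content and do not stand for the family. Each runs 5′ to 3′ on the gene's own strand from 250 bases before to 50 bases after the start of the first RefSeq entry of the gene, in build GRCm38.p6. CG dinucleotides are in capitals; CG reads the same on both strands, so 1 search covers both. Usp46 lies at chr5:74068362-74068661 on the minus strand, Usp48 at chr4:137593922-137594221 on the plus strand and Usp32 at chr11:85139906-85140205 on the minus strand. Usp26 lies at chrX:51801184-51801483 and Usp50 at chr2:126783411-126783710, both on the minus strand.
Usp46: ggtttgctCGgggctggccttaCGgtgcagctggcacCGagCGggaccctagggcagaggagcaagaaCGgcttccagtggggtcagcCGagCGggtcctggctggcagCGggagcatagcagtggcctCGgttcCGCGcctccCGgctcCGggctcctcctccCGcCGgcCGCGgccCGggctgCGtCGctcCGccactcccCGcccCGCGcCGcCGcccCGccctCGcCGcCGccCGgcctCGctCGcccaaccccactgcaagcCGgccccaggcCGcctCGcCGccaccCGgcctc
Usp48: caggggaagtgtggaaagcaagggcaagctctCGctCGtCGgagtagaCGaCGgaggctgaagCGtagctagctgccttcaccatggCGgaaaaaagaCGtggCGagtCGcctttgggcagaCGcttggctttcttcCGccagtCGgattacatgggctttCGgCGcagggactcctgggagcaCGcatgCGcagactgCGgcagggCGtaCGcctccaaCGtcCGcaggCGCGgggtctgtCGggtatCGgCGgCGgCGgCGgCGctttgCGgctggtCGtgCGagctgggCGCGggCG
Usp32: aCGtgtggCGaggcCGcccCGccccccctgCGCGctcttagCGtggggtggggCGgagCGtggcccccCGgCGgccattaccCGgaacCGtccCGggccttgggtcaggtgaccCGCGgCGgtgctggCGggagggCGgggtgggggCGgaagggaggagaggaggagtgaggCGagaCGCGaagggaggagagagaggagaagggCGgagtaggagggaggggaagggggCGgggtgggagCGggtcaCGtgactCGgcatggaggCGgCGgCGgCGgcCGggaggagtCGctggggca
Usp26: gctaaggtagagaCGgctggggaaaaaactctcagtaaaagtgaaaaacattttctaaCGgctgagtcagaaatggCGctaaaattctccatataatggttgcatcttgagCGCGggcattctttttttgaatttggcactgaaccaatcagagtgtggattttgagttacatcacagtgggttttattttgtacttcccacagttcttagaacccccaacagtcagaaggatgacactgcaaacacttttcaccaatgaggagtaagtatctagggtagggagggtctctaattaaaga
Usp50: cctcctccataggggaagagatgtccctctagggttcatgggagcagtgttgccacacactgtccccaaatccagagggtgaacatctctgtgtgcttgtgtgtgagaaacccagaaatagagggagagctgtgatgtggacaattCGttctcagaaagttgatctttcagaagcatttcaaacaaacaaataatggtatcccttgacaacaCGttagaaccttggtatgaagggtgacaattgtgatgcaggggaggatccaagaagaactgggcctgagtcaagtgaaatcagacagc

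These windows hold 38 CG in Usp46, 37 in Usp48, 34 in Usp32, 5 in Usp26 and 2 in Usp50. The members with the most CG, Usp7 (63), Usp25 (54) and Usp6nl (51), had stage-averaged genotype differences of -0.11, 0.33 and -0.03. Usp54, with 5 CG like Usp26, was at -0.10. Usp14, also called higher, had no promoter entry. Of the 52 members, 39 had a promoter entry, with a median of 28 CG (range 2 to 63), against a median of 7 over 27025 genes with an entry and 20 over the 9015 of those that were tested. At least 1 CG was present in 100% of the members' promoters and in 94.2% of all promoters. At least 20 CG were present in 64.1% of the members' promoters and 26.8% of all promoters. Among tested genes with an entry the shares were 62.9% of 35 members and 50.4% of 9015 genes. Across the 35 members, the CG count and the stage-averaged genotype difference had a Spearman correlation of -0.18, against -0.11 across the 9015 genes. These are descriptions over genes that share the same 12 libraries, and the match of a dinucleotide says nothing about occupancy.

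Per library, 9838 to 11624 genes reached 1 FPKM and 4704 to 7227 genes had a value of 0. Cxxc1 itself, the targeted gene, was listed in every library. It ranged from 11.7 to 17.3 FPKM in WT and 9.19 to 9.57 in Cxxc1-null pachytene, 13.7 to 17.6 and 8.29 to 9.57 in diplotene, and 12.5 to 12.8 and 2.02 to 3.10 in meiosis II. The 8 primary spermatocyte markers (Sycp1, Sycp3, Hormad1, Piwil1, Hspa2, Ccna1, Ldhc and Pgk2) all reached 1 FPKM at each stage in both genotypes, and their summed level ranged from 8021 to 15647 FPKM. Markers of spermatogonia, Sertoli cells and blood summed to at most 10.1, 32.8 and 5.41 FPKM, and those of Leydig cells to between 9.20 and 267. Round spermatid markers summed to 1938 to 2197 FPKM in WT and 1369 to 2075 in Cxxc1-null pachytene. In diplotene they were lower, at 348 to 768 and 144 to 735. WT pachytene replicate 2 lay closer to diplotene than the other pachytene libraries (r across genes with the WT diplotene mean 0.955, against 0.914 to 0.930). Cxxc1-null diplotene replicate 2 correlated with the WT meiosis II mean at r = 0.891 across genes, against 0.834 to 0.849 for the other diplotene libraries.

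**Figure D1:**
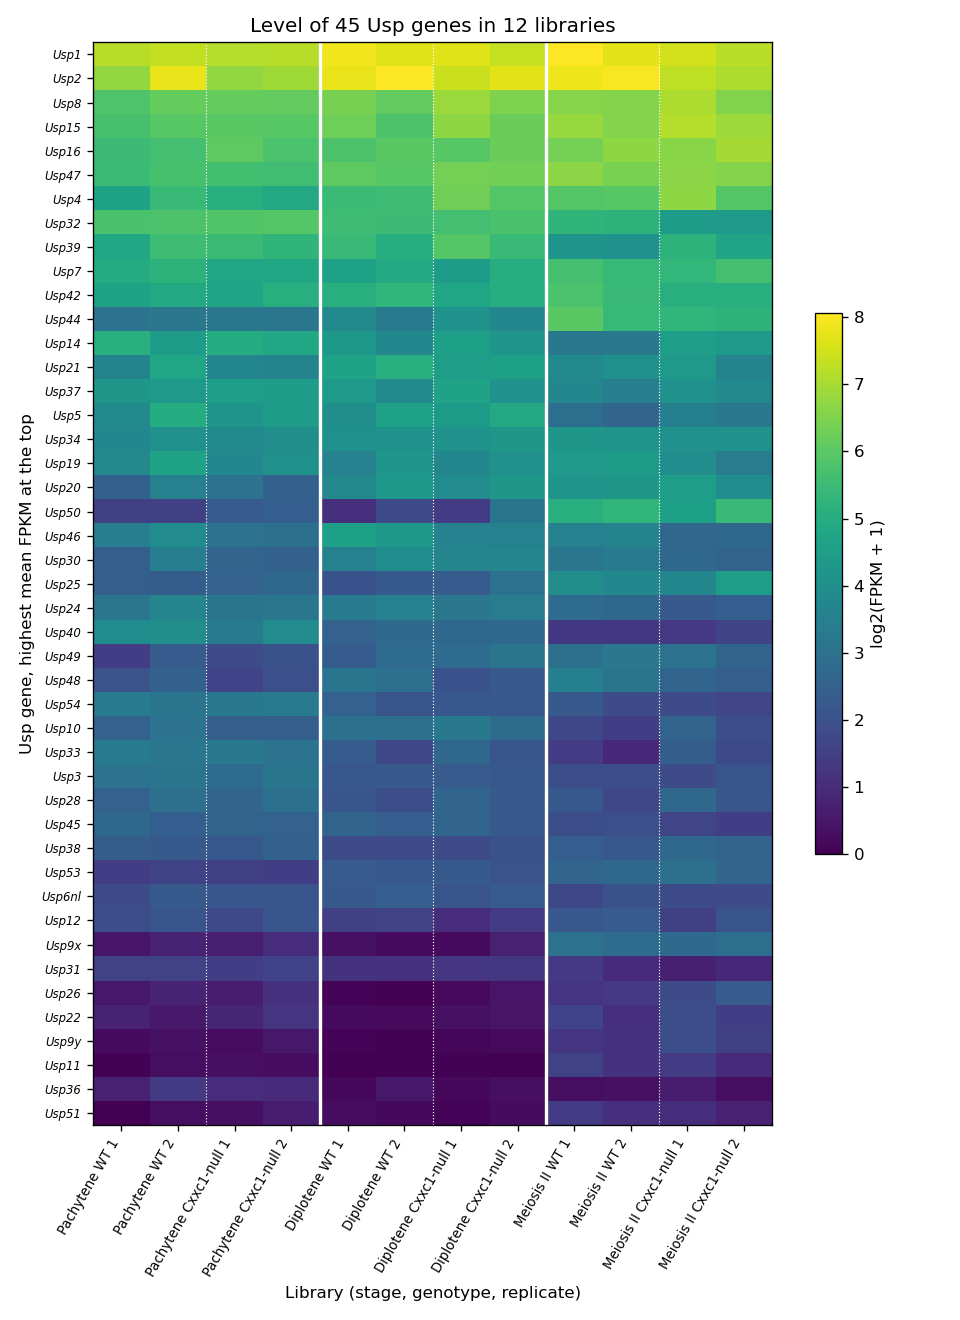
Level of the 45 tested Usp genes (rows, highest mean at the top) in the 12 libraries (columns, by stage, genotype and replicate), as log2(FPKM + 1) on the colour scale. Usp1 and Usp2 stand at the top, and the X-linked and Y-linked members near the bottom are dark in pachytene and diplotene and brighter in meiosis II.

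Most of the family was transcribed in these cells. The members' levels summed to between 826 and 1403 FPKM in a library, and 38 to 44 of the 52 reached 1 FPKM. Over the 12 libraries, 40 members averaged at least 1 FPKM, 21 at least 10 and 2 at least 100. FPKM is scaled by length, but oligo-dT priming, shared fragments and overlapping genes may still affect levels. The order of levels between genes is therefore approximate.

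The 2 members above 100 FPKM were Usp1 and Usp2. Usp1 encodes the protease that, with its cofactor UAF1, deubiquitinates FANCD2 and PCNA in DNA repair, and it averaged 184 FPKM. Usp2, which in mouse is linked to circadian rhythm and to male fertility, averaged 182 FPKM. The next in order were Usp8, an endosomal protease that acts on receptors (86.4), and Usp15, a protease of signalling factors and splicing proteins (84.2). Usp16, which acts on ubiquitinated histone H2A, averaged 72.9 and Usp47, known for DNA polymerase beta as a substrate, 71.7. Usp4 (53.0), Usp32 (44.3), Usp39 (35.4) and Usp7, the protease of Mdm2 and p53 (33.7), completed the 10 highest. Usp39 is a splicing factor of the tri-snRNP that lacks catalytic residues. The ranges over libraries of neighbours in this order overlapped throughout: Usp1 ran from 142 to 266 FPKM and Usp2 from 106 to 261.

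At the low end, 7 members stayed under the filter and were not tested: Usp13, Usp17l5, Usp18, Usp27x, Usp29, Usp35 and Usp43. Usp17l5 was listed at 0 in all 12 libraries. The highest value among the 7 was 0.809 FPKM, for Usp43. Usp18 encodes the protease that removes the interferon-induced ubiquitin-like protein ISG15. Members with close relatives (Usp12 and Usp46, Usp9x and Usp9y, Usp22, Usp27x and Usp51, and the Usp17-like copies) may have shared fragments in the authors' quantification.

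In the WT means, 25 of the 45 tested members were highest in meiosis II, 13 in pachytene and 7 in diplotene. The members did not share 1 time course: from WT diplotene to meiosis II 14 rose and 8 fell by the test used below. The median member differed by -0.04 on the log2(FPKM + 1) scale between WT pachytene and diplotene and by 0.18 between WT diplotene and meiosis II. Over all 12956 genes tested these medians were -0.11 and 0.02. They depend on scaling: with every library set to a common median, the second was -0.12 for the members and -0.28 for all genes.

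Whether loss of Cxxc1 alters the level of these genes was asked within each stage and averaged over the 3 stages. In meiosis II 4 members passed the test: Usp46 and Usp32 were lower and Usp14 and Usp26 higher in Cxxc1-null cells. In the stage average 4 passed: Usp46 and Usp48 were lower and Usp14 and Usp26 higher. The share of members called lay near or below that of all genes. In meiosis II the calls were 2 higher (4.44% of 45, against 6.14% of all genes tested) and 2 lower (4.44%, against 4.35%), by limma with Benjamini-Hochberg adjustment over all 12956 genes. In the stage average they were again 2 higher (4.44%, against 11.5%) and 2 lower (4.44%, against 5.13%).

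In pachytene 0 of 45 members passed limma (background 0.34% higher and 0.0154% lower), and 1 had an unadjusted p under 0.05. In diplotene 0 passed (background 0.702% higher and 0.0849% lower), and 2 had an unadjusted p under 0.05. The genotype by stage interaction gave 0 calls (background 0.054%) and 2 members with an unadjusted p under 0.05. Calls at 1 stage are thus not shown to differ from the other stages. The median genotype difference of the members was 0.01 in pachytene, 0.11 in diplotene, -0.01 in meiosis II and -0.01 in the average. Over all genes tested it was 0.04, 0.09, 0.02 and 0.05.

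Counting only whether both Cxxc1-null libraries lay beyond both WT libraries, 8 members were higher (17.8%, background 24.1%) and 6 lower (13.3%, background 13.3%) in pachytene. In diplotene 15 were higher (33.3%, background 30.4%) and 6 lower (13.3%, background 15.2%). In meiosis II 11 were higher (24.4%, background 30.1%) and 16 lower (35.6%, background 26.4%). Beyond both WT libraries at all 3 stages were 0 members in the higher direction (background 8.24%) and 2 in the lower direction (background 3.91%), Usp46 and Usp48.

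**Figure D2:**
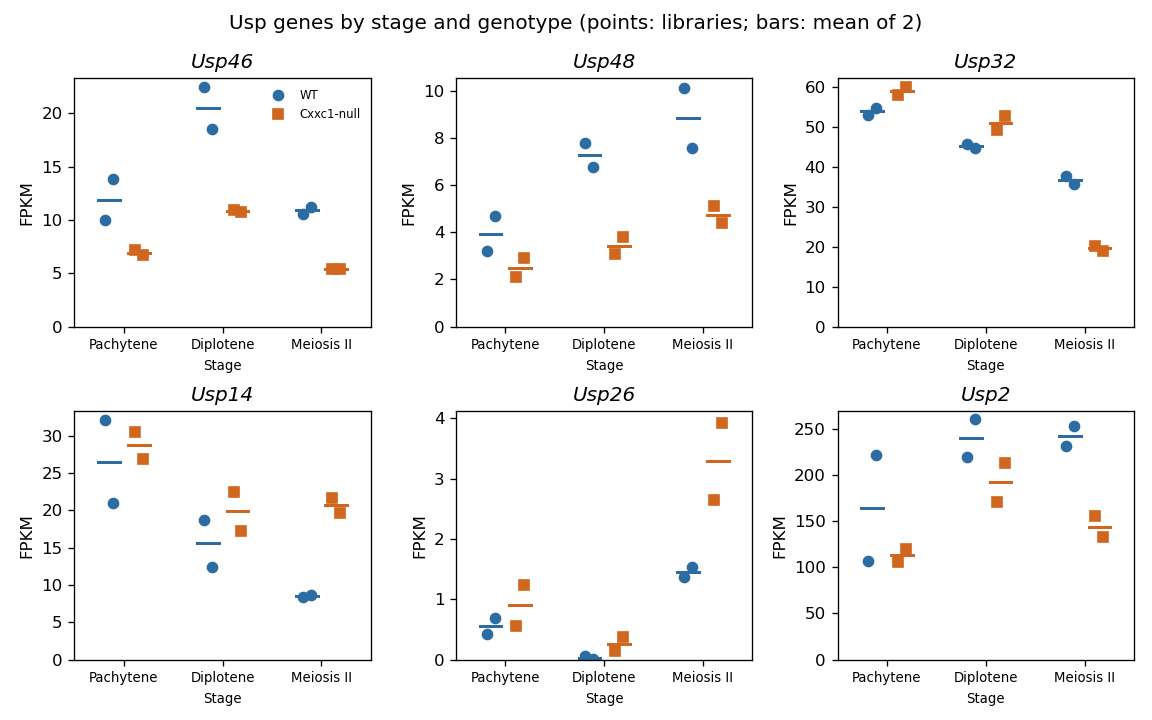
FPKM (vertical axes, from 0) of the 5 members called between genotypes and of Usp2, by stage (horizontal axes); points are single libraries and bars the mean of 2, WT and Cxxc1-null in separate colours. Usp46 and Usp48 are lower in the Cxxc1-null libraries at each stage, Usp32 is lower and Usp14 and Usp26 are higher in the Cxxc1-null libraries of meiosis II.

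Usp46 had the smallest adjusted p of the family in the stage average. It encodes a protease that needs UAF1 and WDR20 for activity and is known in mouse for its role in behaviour and synaptic receptor turnover. In pachytene it was at 9.96 and 13.8 FPKM in WT and at 7.19 and 6.69 in Cxxc1-null libraries. In diplotene the WT libraries were at 22.4 and 18.5 and the Cxxc1-null libraries at 10.9 and 10.7. In meiosis II they were at 10.5 and 11.2 against 5.39 and 5.44. The groups did not overlap at any stage, and every Cxxc1-null library lay below every WT library of its stage. The Cxxc1-null mean was 58.4%, 52.9% and 49.7% of the WT mean in the order of the stages. Differences are given on the log2(FPKM + 1) scale, where the added 1 shrinks those of low genes. Usp46 fell by 0.81 ± 0.12 (standard error) in the stage average (limma adjusted p 0.00304) and by 0.89 ± 0.22 in meiosis II (limma adjusted p 0.028).

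Taken singly, the first 2 stages did not pass for Usp46. The difference was -0.68 ± 0.22 in pachytene (limma adjusted p 0.27) and -0.86 ± 0.22 in diplotene (limma adjusted p 0.10). The stage-averaged call held without any single library (adjusted p 0.00297 to 0.0125) and without both libraries nearest another stage (0.0146). It was lost when same-numbered libraries were joined over stages (0.0761). The meiosis II call was lost without any 1 of the 4 meiosis II libraries (limma adjusted p 0.121 and 0.128 with WT replicate 1 or 2 left out, 0.111 and 0.137 with Cxxc1-null replicate 1 or 2 left out). RefSeq places antisense transcripts over Usp46 that have no row in the table, and without strand information their reads cannot be told apart from those of Usp46.

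Usp48, whose human counterpart acts on histone H2A and on the NF-kappaB subunit RelA, was low in pachytene and higher later. Its pachytene levels were 3.19 and 4.69 FPKM in WT and 2.09 and 2.91 in Cxxc1-null libraries. In diplotene they were 7.78 and 6.75 against 3.10 and 3.78, and in meiosis II 10.1 and 7.57 against 5.10 and 4.38. No Cxxc1-null library reached a WT library of its stage. The Cxxc1-null mean was 63.3%, 47.4% and 53.6% of WT. Usp48 fell by 0.72 ± 0.14 in the stage average (limma adjusted p 0.00952). Within stages the differences were -0.49 ± 0.25, -0.90 ± 0.25 and -0.77 ± 0.25, with limma adjusted p 0.52, 0.13 and 0.079. The averaged call held without any single library (0.00865 to 0.0334) and was lost when same-numbered libraries were joined (0.102).

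Usp32 encodes a membrane-anchored protease known in human cells at the Golgi and on endosomes through Rab7. In pachytene it was at 53.1 and 54.8 FPKM in WT and 58.0 and 60.1 in Cxxc1-null libraries, and in diplotene at 45.7 and 44.8 against 49.2 and 52.9. In meiosis II it was at 37.6 and 35.8 in WT and 20.2 and 19.0 in Cxxc1-null libraries, so the order of the genotypes was the opposite there, with no overlap at any stage. It fell by 0.87 ± 0.17 in meiosis II (limma adjusted p 0.0118), to 53.4% of WT. The pachytene and diplotene differences were 0.13 ± 0.17 and 0.17 ± 0.17. The interaction of genotype and stage had the smallest p of the family for Usp32 (0.00195) and did not pass over all genes (limma adjusted p 0.247). Without WT replicate 1 or 2 or Cxxc1-null replicate 1 or 2 of meiosis II the adjusted p was 0.0811, 0.0549, 0.0569 and 0.0837, and in a fit of meiosis II alone it was 0.0541.

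Usp14 is the protease that binds the proteasome and trims ubiquitin from its substrates. Its pachytene levels were 32.1 and 21.0 FPKM in WT and 30.5 and 26.9 in Cxxc1-null libraries, and these overlapped. Those in diplotene, 18.7 and 12.5 against 22.5 and 17.3, overlapped too. In meiosis II the WT libraries were at 8.35 and 8.64 and the Cxxc1-null libraries at 21.6 and 19.7, well above, at 243% of WT. Usp14 rose by 1.19 ± 0.27 in meiosis II (limma adjusted p 0.0212) and by 0.56 ± 0.15 in the average (0.0348).

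Both Usp14 calls depended on the libraries. In meiosis II the adjusted p was 0.115 and 0.0866 with WT replicate 1 or 2 left out and 0.102 and 0.0963 with Cxxc1-null replicate 1 or 2 left out, and in a fit of that stage alone it was 0.0305. The averaged call was lost without any 1 of 9 libraries (adjusted p 0.0637 to 0.0924): WT pachytene replicate 2, either Cxxc1-null pachytene library, WT diplotene replicate 2, Cxxc1-null diplotene replicate 1 and any meiosis II library. Thoc1 overlaps Usp14 in RefSeq, and their reads may be mixed.

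Usp26 is an X-linked gene known for expression in testis. It was at 0.433 and 0.696 FPKM in WT and 0.558 and 1.24 in Cxxc1-null pachytene, and at 0.0543 and 0.0168 against 0.151 and 0.376 in diplotene. In meiosis II it was at 1.37 and 1.53 in WT and 2.66 and 3.92 in Cxxc1-null libraries, 227% of WT and without overlap. Usp26 rose by 0.79 ± 0.22 in meiosis II (limma adjusted p 0.0468) and by 0.45 ± 0.13 in the average (0.0387). These are the weakest of the calls. The meiosis II call was lost without any 1 of the 8 diplotene and meiosis II libraries (adjusted p 0.0579 to 0.275). The averaged call was lost without WT pachytene replicate 1, Cxxc1-null pachytene replicate 2, either WT diplotene library, Cxxc1-null diplotene replicate 2, either WT meiosis II library or Cxxc1-null meiosis II replicate 2 (0.0684 to 0.103). Of the 407 X-linked genes tested, 42.0% were called higher in the stage average and 14.7% in meiosis II, so a higher X-linked gene in Cxxc1-null cells was common in these libraries. The 4 tested X-linked members had a median of 0.05 in the average, against 0.41 over the X-linked genes.

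**Figure D3:**
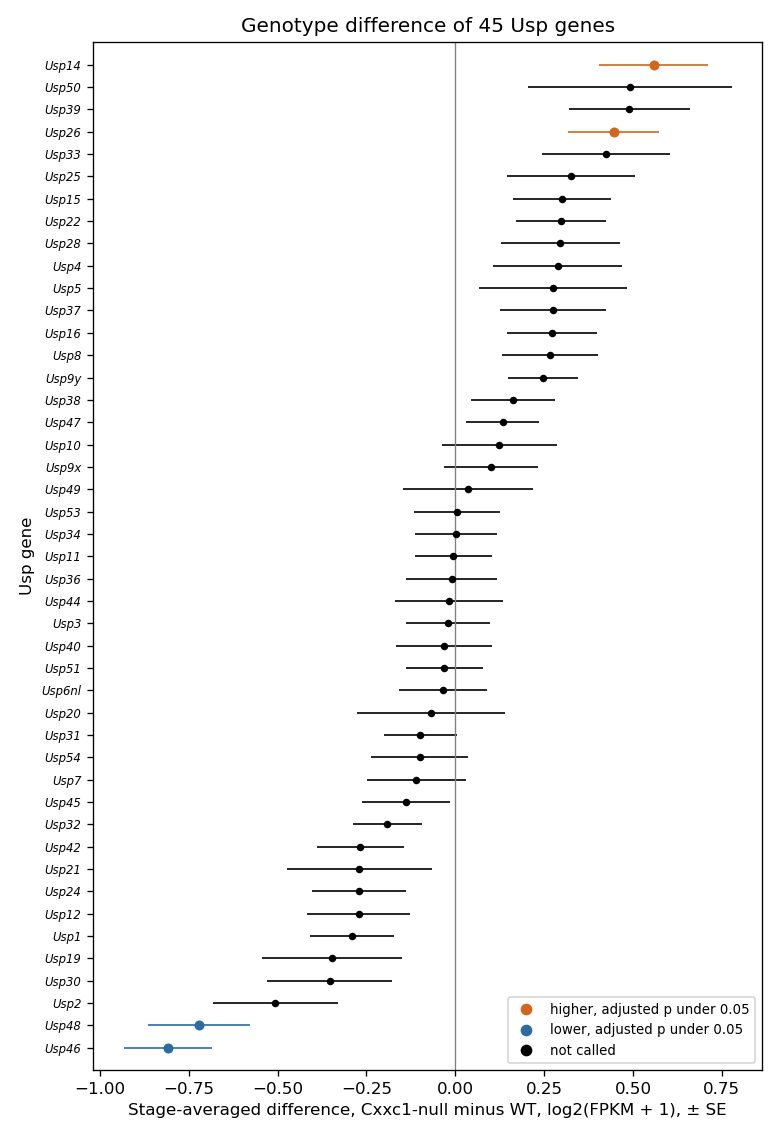
Stage-averaged Cxxc1-null minus WT difference of the 45 tested members on the log2(FPKM + 1) scale (horizontal axis) with its standard error (bars), a gene per row in order of the difference. The called genes are coloured: Usp46 (-0.81) and Usp48 (-0.72) lie at the far left and Usp14 (0.56) and Usp26 (0.45) to the right, where uncalled genes such as Usp39 (0.49) lie beside them.

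Sums of marker lists in meiosis II are given beside these calls. The 6 round spermatid markers (Prm1, Prm2, Tnp1, Tnp2, Acrv1 and Spaca1), all at 1 FPKM or more in these groups, summed to 7024 to 9998 FPKM in WT and 1810 to 3967 in Cxxc1-null meiosis II. Prm1, Prm2, Tnp1 and Tnp2 were below both WT libraries there, while Acrv1 (465 and 291 in WT, 226 and 442 in Cxxc1-null) and Spaca1 (539 and 346 against 463 and 627) overlapped. None of the 6 passed limma in meiosis II; 4 had an unadjusted p under 0.05. The primary spermatocyte sum was 9563 to 10768 in WT and 8021 to 9259 in Cxxc1-null meiosis II, also without overlap. Most of this sum was Ldhc, at 8946 and 7848 in WT and 6402 and 7807 in Cxxc1-null libraries. Piwil1, Hspa2 and Ccna1 were also below both WT libraries, while Sycp1, Sycp3, Hormad1 and Pgk2 overlapped. The Sertoli markers, of which Sox9, Wt1 and Cldn11 reached 1 FPKM, summed to 22.5 to 32.8 and 17.5 to 24.4, which overlapped. The part of these lists in the meiosis II differences of Usp46, Usp32, Usp14 and Usp26 was not tested. In diplotene the spermatid sums overlapped (348 to 768 in WT and 144 to 735 in Cxxc1-null). The primary spermatocyte sums (10888 to 12587 against 9518 to 9826) and the Leydig sums (37.9 to 68.2 against 12.0 to 22.6) did not. Most of the former was Ldhc (10502 and 9029 against 7892 and 7824). Sycp1, Piwil1 and Hspa2 were also below both WT libraries, Sycp3 and Pgk2 above both, and Hormad1 and Ccna1 overlapped. Most of the Leydig sum was Insl3 (34.7 and 65.6 against 10.1 and 20.7). In pachytene the Leydig sums lay the other way, at 9.20 to 30.3 in WT and 30.8 to 50.8 in Cxxc1-null libraries. The part of these lists in the stage-averaged falls of Usp46 and Usp48 was not tested either. In bulk RNA, fewer cells of a type and less RNA per cell cannot be told apart.

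The other members near the threshold are given as values. In meiosis II, 12 members had an unadjusted p under 0.05, of which 8 did not pass adjustment. Among these was Usp2, at 231 and 252 FPKM in WT and 155 and 133 in Cxxc1-null libraries, a difference of -0.75 ± 0.30 (limma adjusted p 0.15). Usp1 was at 266 and 212 against 182 and 150 (-0.52 ± 0.20, limma adjusted p 0.14). Neither gene's groups overlapped in meiosis II. The share of the family's summed FPKM that came from Usp1 and Usp2 together was 35.4% in both WT libraries and 24.3% to 25.5% in the Cxxc1-null libraries. In diplotene it was 39.3% to 40.3% against 30.7% to 32.3%, and in pachytene 30.7% to 34.4% against 27.5% to 28.8%. The lower share in every Cxxc1-null library is a description, without a test.

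Usp33 and Usp39 lay on the other side. Usp33, which is known to bind the VHL ubiquitin ligase and to act on receptors, was at 1.62 and 0.905 FPKM in WT and 4.18 and 2.52 in Cxxc1-null meiosis II (0.93 ± 0.31, limma adjusted p 0.086). Usp39 was at 16.9 and 16.2 against 35.8 and 24.9 (0.82 ± 0.29, limma adjusted p 0.11). Both separated without overlap. The remaining members with unadjusted p under 0.05 in that stage were Usp10 (0.63), Usp42 (-0.57), Usp48 and Usp9y (0.53).

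By role, calls are given beside the shares of all genes tested in the stage average, 11.5% higher and 5.13% lower. At these shares, groups of 2 to 10 members are too small to be set apart by their counts. Of 8 tested members of the histone H2A and H2B group, which leaves out Usp48, 0 passed in the stage average, with a median of -0.02. Of 6 tested members in DNA repair and replication 0 passed, with a median of 0.06. Of the 2 UAF1-dependent paralogs, Usp46 passed and Usp12 did not (-0.27 ± 0.14, limma adjusted p 0.22). Usp12 was at 3.60 and 3.99 FPKM in WT and 1.88 and 3.30 in Cxxc1-null meiosis II, below both WT libraries. Of 2 tested members of the proteasome and free-chain group, Usp14 passed and Usp5, which cleaves unanchored chains, did not. The 7 membrane traffic members gave 0 calls in the average and 1 in meiosis II, Usp32, where 4.35% of all genes tested were lower. Of 2 tested members of the testis-enriched group, Usp26 passed in the average and Usp50 did not, with a median of 0.47. The 6 members of the RNA and stress granule group gave 0, with a median of 0.21, and the mitochondrial Usp30 and its group partner Usp19 gave 0, with -0.35 ± 0.18 (limma adjusted p 0.20) and -0.35 ± 0.20 (limma adjusted p 0.25). Of 10 in the signalling and cytoskeleton group only Usp48 passed, and Usp34, a regulator of Wnt signalling through axin, was at 0.00 ± 0.11. Over all genes tested the median was 0.05.

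How the family changes as WT cells pass through meiosis was the second question of the design. From diplotene to meiosis II, 14 of 45 members rose (31.1%, background 26.1% of all genes tested) and 8 fell (17.8%, background 18.9%) by limma. On the log2(FPKM + 1) scale the risers were led by Usp50, Usp9x, Usp44, Usp25, Usp11 and Usp26, and the members that fell by Usp5, Usp40 and Usp10. From pachytene to diplotene, 3 rose (6.67%, background 9.08%) and 5 fell (11.1%, background 17.4%). The shares are near those of all genes.

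The split of higher and lower calls depends on the scaling. With every library set to a common median, the calls from diplotene to meiosis II were 9 higher and 15 lower, and under quantile normalization 10 and 15. The median of all genes moved from 0.02 to -0.28 and -0.23 under these scalings. From pachytene to diplotene the split was 10 higher and 3 lower with a common median and 6 and 1 under quantile normalization, with the median of all genes at 0.10 and 0.04 in place of -0.11.

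On the log2(FPKM + 1) scale Usp50 had the largest of these rises. With a pseudocount of 0.1 it was close to that of Usp9x (4.34 and 4.36). The human counterpart of Usp50 is described as lacking activity, and the mouse promoter window above holds 2 CG. Usp50 was at 1.88 and 1.88 FPKM in WT pachytene, 1.15 and 2.40 in diplotene and 33.0 and 38.6 in meiosis II, so the last stage lay far above both earlier ones. From diplotene to meiosis II it rose by 3.76 ± 0.50 (limma adjusted p 0.000185). In Cxxc1-null cells it was at 3.94 and 4.33, 1.66 and 7.83, and 22.3 and 42.5 FPKM, and rose by 2.71 ± 0.50. As a ratio, the Cxxc1-null diplotene libraries differed most from each other, the higher value being that of replicate 2.

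Usp44 acts on histone H2B and, in the mitotic checkpoint, on Cdc20. It was at 7.40 and 8.22 FPKM in WT pachytene, 13.3 and 9.08 in diplotene and 62.4 and 41.6 in meiosis II. It rose by 2.11 ± 0.26 from diplotene to meiosis II (limma adjusted p 0.000132). In Cxxc1-null meiosis II it was at 38.2 and 35.9, below both WT libraries. Usp25, at 3.13 and 3.88 FPKM in WT diplotene and 14.7 and 12.5 in meiosis II, rose by 1.70 ± 0.31 (limma adjusted p 0.00138). Other risers were Usp9y (1.15), Usp22 (1.13), Usp51 (1.02), Usp7 (0.80), Usp12 (0.73), Usp15 (0.65), Usp16 (0.64) and Usp47 (0.53). Of these, Usp12, Usp15, Usp16 and Usp47 lost the call under both other scalings, and Usp7 under the common median. Single libraries also ended these calls. The adjusted p of Usp7 was 0.122 without WT diplotene replicate 1 and 0.127 without WT meiosis II replicate 1, and that of Usp12 0.0886 to 0.139 without any 1 of the 4 WT libraries compared. Usp16 was at 0.166 without WT diplotene replicate 1, 0.0721 without replicate 2 and 0.212 without WT meiosis II replicate 2. Usp15 was at 0.0548 to 0.297 without either Cxxc1-null pachytene library, WT diplotene replicate 2 or any meiosis II library, and Usp47 at 0.0562 to 0.188 without any diplotene or WT meiosis II library. Of the 8 tested members of the histone group, which leaves out Usp48, 5 rose (Usp7, Usp16, Usp22, Usp44 and Usp51) and 0 fell. The filter favours risers in this count. Usp51 reached 1 FPKM only in meiosis II, and Usp22 only there and in Cxxc1-null pachytene replicate 2 (1.30). Usp27x, also of this group, was left out by the filter. Of all genes tested 26.1% rose and 18.9% fell. Usp51 is X-linked, and 89.7% of X-linked genes tested rose.

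Among the members that fell from WT diplotene to meiosis II, Usp5 was at 15.2 and 23.3 FPKM and then 6.49 and 5.24, a fall of 1.53 ± 0.36 (limma adjusted p 0.0058). Usp40 was at 14.2 and 14.9 in pachytene, 4.80 and 5.69 in diplotene and 1.48 and 1.48 in meiosis II. It fell at both steps, by 1.32 ± 0.23 (limma adjusted p 0.0042) and 1.33 ± 0.23 (0.00107). Usp33 was the other member called lower at both steps, which share the diplotene libraries. Usp10, a partner of the stress granule protein G3BP, fell by 1.33 ± 0.28 (limma adjusted p 0.0032), from 6.64 and 6.80 to 2.34 and 1.83 FPKM. Usp39 fell by 1.10 ± 0.29 (0.0117), Usp33 by 0.88 ± 0.31 (0.041) and Usp46 by 0.85 ± 0.22 (0.0087), with Usp14 at -0.78 and Usp24 at -0.68 also past the threshold. Some of these calls rest on 1 library. Usp5 was at an adjusted p of 0.0516 without WT diplotene replicate 2. Usp39 was at 0.0886 without WT diplotene replicate 1 and 0.0577 without WT meiosis II replicate 2. Usp46 was at 0.0694 without WT diplotene replicate 1 and 0.0533 without WT meiosis II replicate 1. Usp33 was at 0.253 without WT diplotene replicate 1, 0.225 without WT meiosis II replicate 2, 0.0501 without WT meiosis II replicate 1 and 0.0555 and 0.0554 without Cxxc1-null pachytene replicate 1 and 2. Usp14 was at 0.241 without WT diplotene replicate 1, 0.126 and 0.106 without WT meiosis II replicate 1 and 2, and 0.0505 and 0.0504 without Cxxc1-null pachytene replicate 1 and 2. Usp24 was at 0.0506 to 0.159 without either Cxxc1-null pachytene library or any 1 of the 4 WT libraries compared.

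From WT pachytene to diplotene the calls were fewer and less stable. Usp48 (0.76 ± 0.25, limma adjusted p 0.047), Usp46 (0.75 ± 0.22, 0.029) and Usp53 (0.71 ± 0.21, 0.030) rose. Usp53 encodes a tight junction protein. Usp40, Usp33 (-1.18 ± 0.31, 0.020), Usp54 (-0.92 ± 0.24, 0.019), Usp3 (-0.88 ± 0.20, 0.012) and Usp36 (-0.70 ± 0.22, 0.041) fell. Usp3 is a histone H2A protease and Usp36 a nucleolar one. Only Usp40 kept its call in every alternative run. Without WT pachytene replicate 1, WT diplotene replicate 1 and WT diplotene replicate 2 in turn, the adjusted p was 0.161, 0.149 and 0.0688 for Usp46 and 0.136, 0.118 and 0.102 for Usp53. Without WT pachytene replicate 1 and WT diplotene replicate 2 it was 0.0940 and 0.144 for Usp33 and 0.101 and 0.136 for Usp54, and without WT diplotene replicate 1 and 2 it was 0.0645 and 0.0579 for Usp3. Usp48 lost the call without any library other than WT pachytene replicate 2 (0.0547 to 0.248). Usp36 lost it without Cxxc1-null pachytene replicate 2, any diplotene library or either WT meiosis II library (0.0524 to 0.207). The number of calls was 3 without WT pachytene replicate 1, 13 without WT pachytene replicate 2, 3 without WT diplotene replicate 1 and 1 without WT diplotene replicate 2.

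**Figure D4:**
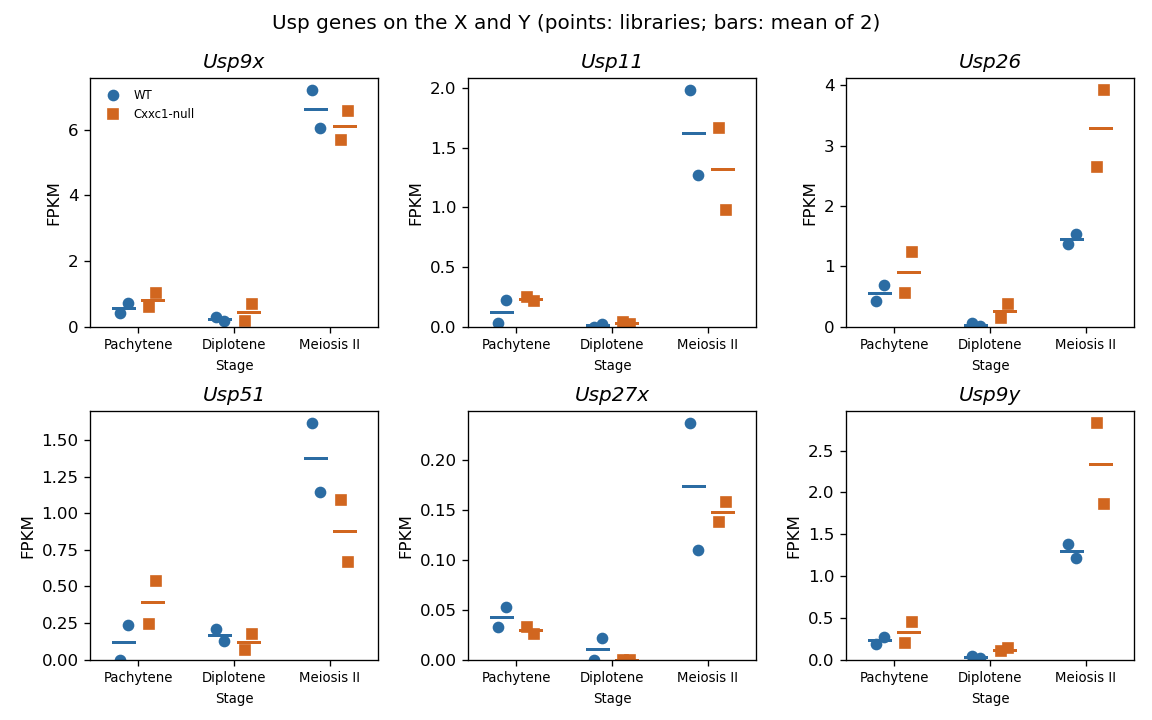
FPKM (vertical axes, from 0) of the X-linked members Usp9x, Usp11, Usp26, Usp27x and Usp51 and the Y-linked Usp9y by stage (horizontal axes); points are single libraries, bars the mean of 2, WT and Cxxc1-null in separate colours. All are lower in pachytene and diplotene than in meiosis II in both genotypes, and Usp27x stays at or below 0.236 FPKM.

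Of the 52 members 5 are on the X chromosome, 1 on the Y and 46 on autosomes. All 4 tested X-linked members and Usp9y rose from diplotene to meiosis II in both genotypes. So did most X-linked genes tested: 89.7% of 407 rose in WT and 90.4% in Cxxc1-null cells. Among the 6 Y-linked genes tested, 100% rose in WT and 83.3% in Cxxc1-null cells. These counts are partly set by the filter of 1 FPKM, which a gene can pass through meiosis II alone. Usp11, Usp51 and Usp9y did so. Usp9x and Usp26 otherwise reached 1 FPKM only in Cxxc1-null pachytene replicate 2. Usp27x, low at every stage, was left out. The X-linked members' median rise was 1.30 in WT and 1.45 in Cxxc1-null cells, against 2.03 and 2.05 over X-linked genes and -0.01 and -0.04 over autosomal genes. Markers of other cells differed at the same step. Between diplotene and meiosis II the Sertoli sum was 0.215 to 0.652 FPKM and then 22.5 to 32.8 in WT, and 0.368 to 1.17 and then 17.5 to 24.4 in Cxxc1-null cells. The round spermatid sum was 348 to 768 and then 7024 to 9998 in WT, and 144 to 735 and then 1810 to 3967 in Cxxc1-null cells. Their part in the rises of these and the other members was not tested.

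Usp9x, a protease of many signalling and adhesion proteins, was at 0.410 and 0.722 FPKM in WT pachytene, 0.298 and 0.169 in diplotene and 7.20 and 6.06 in meiosis II. In Cxxc1-null libraries it was at 0.588 and 1.03, 0.186 and 0.685, and 5.68 and 6.56. The meiosis II libraries lay far above all others in both genotypes, and the genotypes overlapped there. Usp9x rose by 2.63 ± 0.23 in WT (limma adjusted p 2.6e-05) and by 2.33 ± 0.23 in Cxxc1-null cells. Its Y-linked homolog Usp9y was at 0.0451 and 0.0251 in WT diplotene and 1.38 and 1.22 in meiosis II, and at 2.83 and 1.86 in Cxxc1-null meiosis II. The Cxxc1-null libraries of Usp9y were above both WT libraries, with a difference of 0.53 ± 0.17 that did not pass (limma adjusted p 0.082).

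Usp11, linked to BRCA2 and homologous recombination repair, was listed at 0 in WT diplotene replicate 1 and at 0.0203 in replicate 2, and reached 1.98 and 1.27 FPKM in WT meiosis II. It rose by 1.36 ± 0.19 (limma adjusted p 0.000224). In Cxxc1-null meiosis II it was at 1.66 and 0.980, overlapping WT. Usp51, a paralog of the SAGA subunit Usp22, was at 0.209 and 0.129 in WT diplotene, 1.62 and 1.14 in WT meiosis II and 1.09 and 0.664 in Cxxc1-null meiosis II, below both WT libraries there. Usp26 rose by 1.24 ± 0.22 in WT (limma adjusted p 0.0011) and by 1.75 ± 0.22 in Cxxc1-null cells. Usp27x reached at most 0.236 FPKM and was not tested.

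**Figure D5:**
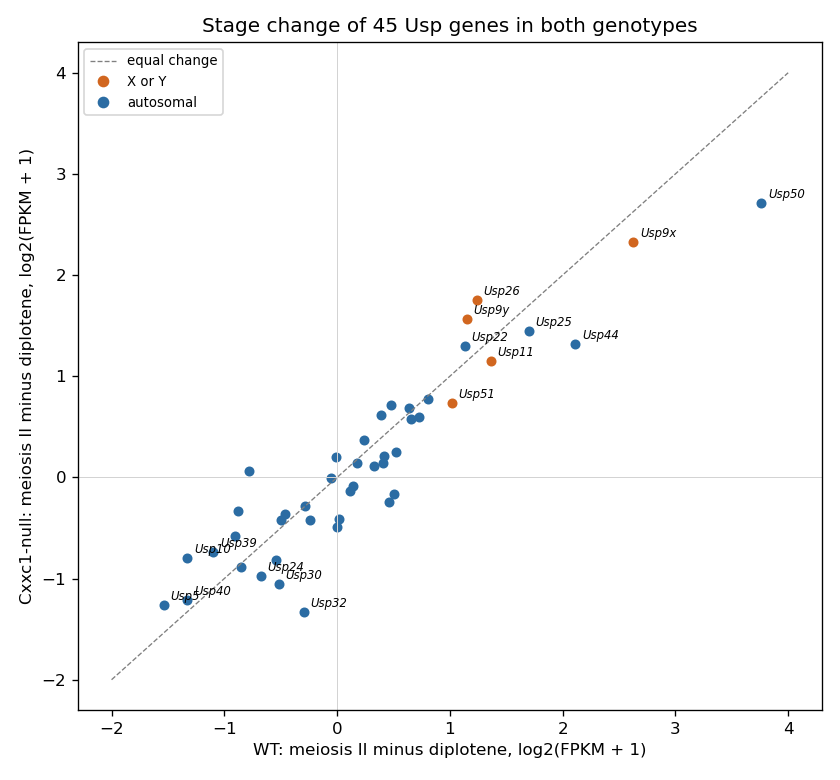
Change from diplotene to meiosis II of the 45 tested members in WT (horizontal axis) and Cxxc1-null cells (vertical axis), both on the log2(FPKM + 1) scale, one point per gene. Usp50, Usp9x and Usp44 are at the upper right and Usp40 and Usp5 at the lower left, and 0 members called in both genotypes changed in opposite directions.

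The step into meiosis II was also read in Cxxc1-null cells, whose libraries are separate from those of WT. In Cxxc1-null cells 13 members rose (28.9%, background 25.3%) and 9 fell (20%, background 18.8%) from diplotene to meiosis II. With a common median the split was 11 and 10, and with quantile normalization 11 and 12. In all, 16 members were called in the same direction in both genotypes, 72.7% of the calls of each, and 0 in opposite directions. Over all genes tested 4599 were, 78.8% of the WT calls and 80.4% of the Cxxc1-null calls, so the members' share was no higher. Among the 16, Usp7, Usp9x, Usp9y, Usp11, Usp16, Usp22, Usp25, Usp26, Usp44, Usp50 and Usp51 rose, and Usp5, Usp10, Usp24, Usp40 and Usp46 fell. The other 6 Cxxc1-null calls included Usp32, which fell by 1.33 ± 0.17 and which in WT did not pass. The interaction test above gives no call for a difference between genotypes in these changes.

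In Cxxc1-null cells 6 members rose (13.3%, background 11.9%) and 4 fell (8.89%, background 17.4%) from pachytene to diplotene. Usp20 (1.29), Usp4 (1.13), Usp30 (1.10), Usp49 (1.04), Usp47 (0.76) and Usp53 (0.68) were higher in diplotene, and Usp54 (-1.12), Usp40 (-0.93), Usp36 (-0.74) and Usp3 (-0.72) lower. With a common median the split was 10 and 3 and with quantile normalization 8 and 2. The count was 6 without Cxxc1-null pachytene replicate 1, 0 without replicate 2, 1 without Cxxc1-null diplotene replicate 1 and 2 without replicate 2. Usp3, Usp36, Usp40, Usp53 and Usp54 were called in the same direction in both genotypes, 62.5% of the WT calls and 50% of the Cxxc1-null calls, against 76.9% and 69.6% over all genes tested.

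The other families of deubiquitinating enzymes were read from the same table for the stage-averaged genotype difference, in which 11.5% of all genes tested were higher and 5.13% lower. Of 14 tested OTU proteases 3 were higher in Cxxc1-null cells and 2 lower, with a median of 0.15. Otud3 rose by 0.66 (limma adjusted p 0.00715), with every Cxxc1-null library above both WT libraries of its stage. Otud6a (0.62) and Otub1 (0.43), an inhibitor of ubiquitin-conjugating enzymes, also rose, and Otud1 fell by 0.48. Of 9 JAMM metalloproteases 2 were higher and 0 lower, with a median of 0.16: Stambpl1, a relative of the endosomal protease AMSH, rose by 1.27 (limma adjusted p 0.00459) and the translation initiation subunit Eif3h by 0.48. Of 3 Josephin proteases 1 rose, Atxn3 (0.52). Limma gave 0 calls among 4 UCH proteases, 5 MINDY and ZUFSP proteases and 4 USP-fold genes of other symbols. Of 7 tested ubiquitin and activating enzyme genes Uba1, the principal E1, rose by 0.68, and 0 fell. Some of these named genes were low before meiosis II. In the pachytene and diplotene libraries Otud6a was at 0 to 0.705 FPKM and Uba1 at 0.384 to 3.12. These lists were not split by chromosome, and 42.0% of X-linked genes tested were higher in the same contrast.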

How the data were processed

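RNA was measured in 12 libraries, 2 for each of 3 stages in both genotypes, grouped by their titles; 8 H3K4me3 ChIP libraries of the series were not analysed here. The authors deposited FPKM values for 23235 genes; per the submitters' processing notes TopHat2 2.1.1, Cufflinks 2.2.1 and the mm9 build were used, with no role given. The sources used here give no read counts or depth, and no count test was run. Values were taken as log2(FPKM + 1), and the 12956 genes that reached 1 FPKM in 2 or more libraries were fitted in 1 linear model of the 6 group means (limma 3.58.1, R 4.3.3, mean-variance trend, 6 residual degrees of freedom). P-values were adjusted by Benjamini-Hochberg over all genes tested, with a threshold of 0.05. The contrasts were Cxxc1-null minus WT at each stage and averaged, each stage minus the one before it for either genotype, and the interaction by an F test. FPKM levels are given per library and differences ± standard error.

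The members, the gene lists and the rule for named genes were chosen with earlier results of these data known. Named are all members called between genotypes, the 6 largest called changes per direction of each WT stage contrast, the 10 highest means, sex-linked members, leading members of each role and the called genes of the other lists with the smallest p, at most 4 a list. Usp2, Usp1, Usp33, Usp39 and others near the threshold were added after their values were seen. Alternatives were a pseudocount of 0.1, a filter of 5 FPKM or none, quantile normalization, a common median, no trend, the replicate number as a block, separate fits, each library left out, both libraries nearest another stage left out, and same-numbered libraries joined over stages. The model was tested on simulated data. RefSeq tables (GRCm38.p6) gave promoters, chromosomes and overlapping genes; no coordinates were converted to or from mm9. No strand information is described, so overlapping genes are uncertain.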

Additional observations from a re-analysis of the deposited data

How the results depend on the processing

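The direction of all 70 calls of a member in a contrast held under every alternative that gave a value. Of 1443 such values 1188 stayed past the threshold and 255 did not, and 24 calls held throughout. Members called from WT pachytene to diplotene (8) became 5 without an expression filter, 13 with a common median, 13 without both libraries nearest another stage and 2 in a separate fit. Stage-averaged calls (4) became 2 under quantile normalization and 0 with same-numbered libraries joined over stages. Calls from Cxxc1-null pachytene to diplotene (10) became 4 without both libraries, and the 4 in meiosis II became 1 in a separate fit. Leaving out each library in turn gave 0 to 1 genotype calls in diplotene, 0 to 5 in meiosis II and 2 to 5 in the stage average. The stage average had 2 without Cxxc1-null pachytene replicate 2, WT diplotene replicate 2, either WT meiosis II library or Cxxc1-null meiosis II replicate 2. The ranges were 1 to 13 for WT pachytene to diplotene, 13 to 23 for WT diplotene to meiosis II, and 0 to 13 and 13 to 22 for the same steps in Cxxc1-null cells. With the replicate number as a block the genotype calls were 0 in pachytene, 0 in diplotene, 5 in meiosis II, 6 in the stage average and 0 for the interaction, and the stage calls 11, 23, 14 and 23 in the order just given. The labels tie no replicate number to an animal, batch or day. Deviations of same-numbered libraries correlated over 0.1 in 11 of 15 pairs of groups (range -0.25 to 0.42), not in every pair, so the numbers were not taken to pair libraries, although a shared factor in some pairs is possible. The sources used here give no depth, so its effect on low members such as Usp26 could not be read.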

Other observations

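Proteins listed as partners of individual USPs gave 2 higher and 3 lower calls among 16 tested in the stage-averaged genotype difference. Their median was -0.13 against 0.05 over all genes, of which 11.5% were higher and 5.13% lower. Stam and Stam2, endosomal sorting proteins that bind Usp8, rose by 0.70 (limma adjusted p 0.00999) and 0.51 (0.039). In meiosis II Stam was at 6.15 and 5.68 FPKM in WT and 9.44 and 12.1 in Cxxc1-null libraries, and Stam2 at 24.8 and 22.1 against 41.7 and 37.4, both without overlap. Usp8 itself was at 96.8 and 93.1 against 133 and 91.7, which overlapped. Atxn7l3b, a relative of the SAGA deubiquitinase subunit that binds Usp22, fell by 0.51 (limma adjusted p 0.0132), and G3bp2, a partner of Usp10, by 0.50 (0.0225).

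The shared cofactors of Usp46 and Usp12 did not move as 1 group. Wdr20b fell by 0.69 (limma adjusted p 0.0372), with diplotene levels of 131 and 77.5 FPKM in WT and 77.1 and 53.0 in Cxxc1-null libraries. Its paralog Wdr20a differed by -0.12 (limma adjusted p 0.67) and Wdr48, which encodes UAF1, by 0.07 ± 0.21 (0.86). Close copies may share fragments, so the split between Wdr20a and Wdr20b is uncertain.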
